A study of Mus musculus with 12 samples.

Results

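Jhy, Klk1b24, Klk1b21, Zfp30, Zfp69, Tsga13 and Tmem121 are 7 genes that separated resting splenic B cells of mice with both Ebf1 alleles floxed from those of heterozygote controls. They were picked by hand from the largest rises and falls between these resting cells, among genes with no known role in B cells, so the resting difference between genotypes chose them and is described below without a test. All probes of each gene on the array were read, through the gene name on the array, an older name (4931429I11Rik for Jhy) or the accession. That gave 9 probes, 2 each for Jhy and Zfp30 and 1 for each other gene, of 41174 probes and 27670 gene names in all.

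The cells were B cells from the spleen of C57BL/6 mice. The groups were resting Ebf1fl/fl RERT-Cre cells, resting Ebf1+/fl RERT-Cre cells (the heterozygote control), LPS-treated Ebf1fl/fl RERT-Cre cells and LPS-treated Ebf1+/fl RERT-Cre cells, with 3 arrays each, called fl/fl and +/fl below. Ebf1 is a transcription factor that establishes and maintains the B lineage, RERT-Cre is a Cre recombinase made active by tamoxifen, and LPS is a bacterial cell wall component that activates B cells through TLR4. Every mouse, controls included, carried RERT-Cre, received 3 mg tamoxifen citrate on 4 days in a row and was analysed on day 10, so each comparison sets 2 floxed alleles against 1, and deletion itself was not measured. The labels name a B220+AA4.1- sort and one restricted further to CD21lo cells, without assigning either to samples, and give no LPS dose or time. Replicates are called triplicates, and separate animals are not mentioned, so the p-values here may rest on technical spread alone. The numbers within the sample names of the 3 resting fl/fl arrays are all lower than those of the other 9 arrays, what these numbers mark is not given, and whatever they mark cannot be told apart from the resting fl/fl group.

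The 7 genes have little in common by known function. Jhy was named for juvenile hydrocephalus in mice that lack it and acts in the motile cilia of the ependyma, the lining of the brain ventricles. Klk1b24 and Klk1b21 are glandular kallikreins, secreted serine proteases of a large mouse gene cluster best known from the submandibular salivary gland. Zfp30 and Zfp69 belong to the KRAB zinc finger family, DNA-binding proteins that typically recruit the corepressor Trim28 and silence the chromatin around their sites. Tsga13 is a testis-specific transcript and Tmem121 encodes a membrane protein.

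Levels are background-subtracted Cy3 signals on a log2 scale, set to 0 at the 75th percentile of each array, so a difference of 1 is a factor of 2. "Above background" is the scanner software's own call for a spot well above its local background. Probes at background sat near −7 on these arrays, and their order there carries no information. 1 array stood apart: LPS fl/fl replicate 2 had 83.2% of its spots above background, against 54.4% to 61.4% on the other 11. Among probes that were above background on no other array, 56.2% were above background on it, with a median level of −5.05, against 0.579% to 3.31% of such probes on each of the other arrays. A member seen only on that array after LPS is therefore reported as seen on that array alone.

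All 9 probes are 60-base oligonucleotides, and each level below is the signal at 1 such stretch of the transcript. Sequences are shown for Jhy, Klk1b24, Klk1b21, Tsga13 and Tmem121, and positions alone for Zfp30 and Zfp69. The sequences shown are not a list of the on-off probes. Positions are those of the array design on the mm7 build, and the gene on the minus strand is written as the probe reads. No annotation of that build was used, so exon or UTR is not stated.
Jhy probe 1 (chr9:40825908-40825967, minus strand): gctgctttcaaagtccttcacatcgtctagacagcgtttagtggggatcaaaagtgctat
Jhy probe 2 (chr9:40875197-40875256, minus strand): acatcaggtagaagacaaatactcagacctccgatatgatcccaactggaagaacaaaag
Klk1b24 (chr7:40366158-40366217, plus strand): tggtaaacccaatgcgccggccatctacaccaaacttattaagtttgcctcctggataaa
Klk1b21 (chr7:40278260-40278319, plus strand): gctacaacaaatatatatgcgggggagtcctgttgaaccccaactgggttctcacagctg
Tsga13 (chr6:30827478-30827537, minus strand): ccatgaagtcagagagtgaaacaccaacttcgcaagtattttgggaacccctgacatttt
Tmem121 (chr12:110714533-110714592, plus strand): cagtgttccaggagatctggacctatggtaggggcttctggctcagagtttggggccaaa
The 2 Jhy probes lie far apart in the gene and share no stretch of sequence, so they are separate readings of it. The Zfp30 probes are at chr7:26736658-26736717 and chr7:26734566-26734625 (plus strand) and the Zfp69 probe at chr4:120370282-120370341 (minus strand).

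The name "on-off" held for some of these genes and not for others. Above background on all 3 arrays of one resting genotype and on none of the other were both Jhy probes, Klk1b21 and probe 1 of Zfp30 (on in fl/fl) and Tsga13 (on in +/fl). Klk1b24 was above background on 3 fl/fl arrays and on 1 +/fl array, Zfp69 and Tmem121 were above background on all 12 arrays and differed in level, and probe 2 of Zfp30 was at background on all 6 resting arrays. Across the array, 67 of 41129 probes (0.163%) were on in resting fl/fl cells only and 80 (0.195%) in resting +/fl cells only. Resting values did not overlap at 8 of the 9 member probes, 6 of them higher and 2 lower in fl/fl cells, beside 11.8% and 8.33% of all probes. The genes were chosen for this contrast, so these counts say nothing beyond the choice. Of the 67 probes, 25 were above background on all 3 LPS fl/fl arrays, and of the 80 probes 33 were above background on all 3 LPS +/fl arrays.

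**Figure D1:**
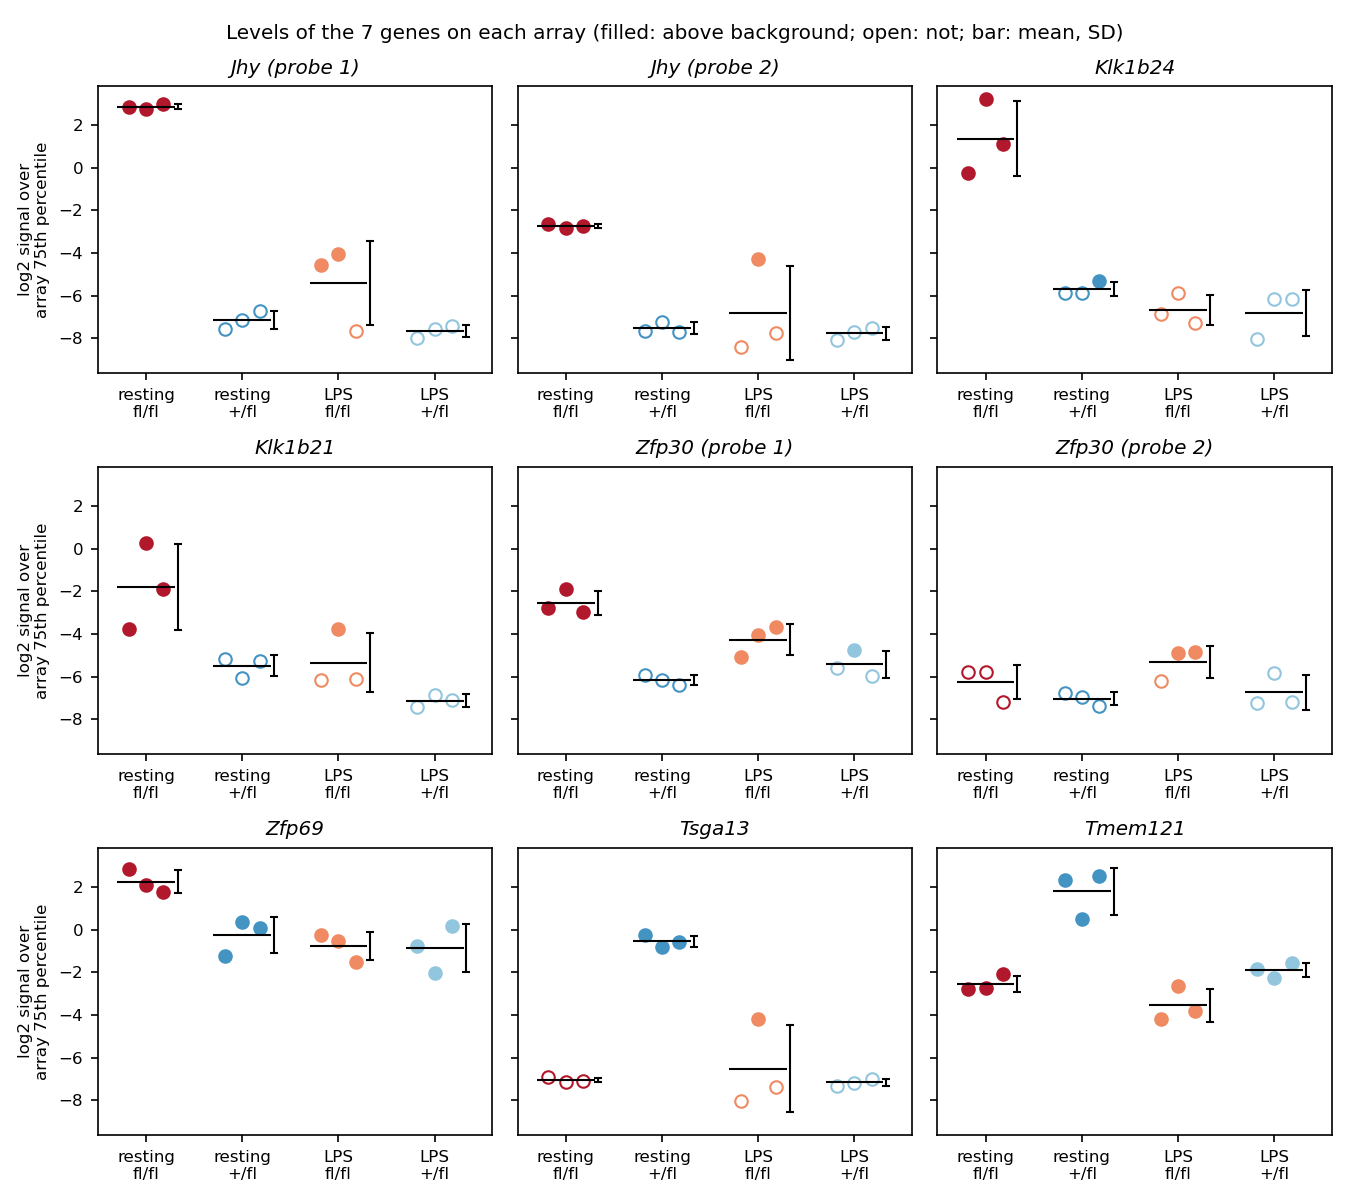
Level of each of the 9 probes (log2 signal over the array's 75th percentile, vertical axis) on each array, by group; filled points are above background, open points are not, and the bars give the mean and SD of 3 arrays. Jhy and Klk1b24 stand apart in resting fl/fl cells, Tsga13 and Tmem121 in resting +/fl cells, while Zfp30 probe 2 stays near background in resting cells.

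Jhy showed the widest gap. Probe 1 read 2.87, 2.75 and 3.01 on the resting fl/fl arrays, against −7.55, −7.14 and −6.73 on the resting +/fl arrays. The fl/fl arrays thus agreed within 0.13 (SD) of their mean of 2.88 and none of the +/fl arrays was above background. The difference is therefore a bound, at least 271-fold on this scale. With normexp background correction the log2 difference was 4.55, which is smaller than that bound. After LPS the same probe read −4.55, −4.04 and −7.66 in fl/fl cells, against −7.99, −7.58 and −7.44 in +/fl cells. LPS fl/fl replicates 1 and 2 were above background, replicate 3 was not, and the groups overlapped. All 3 LPS fl/fl arrays read below all 3 resting fl/fl arrays, in a comparison that holds the resting group on which the gene was chosen.

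The other Jhy probe showed the same on-off pattern on a lower signal. It read −2.64, −2.81 and −2.73 in resting fl/fl cells, against −7.65, −7.22 and −7.71 in resting +/fl cells, at least 5.58-fold. Its log2 difference with normexp was 0.81, again smaller than the bound. Under LPS this probe read −8.41, −4.29 and −7.75 in fl/fl cells, against −8.10, −7.70 and −7.52 in +/fl cells, and was above background on LPS fl/fl replicate 2 only. LPS fl/fl replicate 1, where probe 1 was above background, showed no signal at probe 2. Over the 12 arrays the probes correlated at r = 0.933 (Pearson, given as a description, since the resting arrays chose the gene).

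Klk1b24 was also high in resting fl/fl cells, but its replicates were spread widely. It read −0.26, 3.24 and 1.14 in resting fl/fl cells, against −5.90, −5.86 and −5.30 in resting +/fl cells. Replicate 2 was the highest of the fl/fl arrays and replicate 1 the lowest, and all 3 exceeded every +/fl array, with a difference of means of 7.06 (133-fold, measured against a group above background on 1 of 3 arrays). That log2 difference was 6.12 without fl/fl replicate 2, 7.87 without fl/fl replicate 1 and 3.36 with normexp background correction. After LPS the probe was at background on all 6 arrays, at −6.85, −5.89 and −7.29 in fl/fl cells and −8.05, −6.17 and −6.18 in +/fl cells. In fl/fl cells that is at least 135-fold lower after LPS than at rest, set against the resting group that chose the gene.

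Klk1b21, on the same chromosome, ordered the 3 resting fl/fl arrays as Klk1b24 did. It read −3.76, 0.27 and −1.90 in resting fl/fl cells, against −5.16, −6.07 and −5.27 in resting +/fl cells, at least 9.95-fold. With normexp the log2 difference was 1.35, smaller than this bound. The resting difference of means, 3.70, was 2.67 without fl/fl replicate 2 and 4.68 without fl/fl replicate 1, and within slides, each of which held 1 resting array of each genotype, it was 2.31, 5.42 and 3.37. The LPS arrays read −6.16, −3.76 and −6.12 in fl/fl cells, against −7.45, −6.84 and −7.11 in +/fl cells. All LPS fl/fl values exceeded all LPS +/fl values, as they did at 11.4% of all probes, but only fl/fl replicate 2 was above background, so the probe did not pass the filter for the test.

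Kallikrein genes are near copies of each other, and a probe for 1 of them may also read others. The array's own annotation ties the Klk1b24 probe to Klk1b22 too, and the Klk1b21 probe to Klk1b24 and Klk1b11. The Klk1b24 probe and the Klk1b27 probe overlap by 53 bases, of which 47 are identical, and the capitals below mark the 6 that differ.
Klk1b24: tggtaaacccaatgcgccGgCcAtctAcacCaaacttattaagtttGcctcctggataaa
Klk1b27: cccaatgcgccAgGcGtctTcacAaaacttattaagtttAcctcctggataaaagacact
Klk1b27 was above background on all 12 arrays and read 0.52, −0.01 and 0.23 in resting fl/fl cells, against −0.59, −0.91 and −0.26 in resting +/fl cells, a difference of 0.83 (limma on all 12 arrays, adjusted p = 0.106). Klk1b11, whose probe shares 45 of 53 bases with that of Klk1b24, was at background in resting cells, at a mean of −7.01 in fl/fl and −7.03 in +/fl cells. Cross-hybridisation between the copies was not tested.

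Within the family, resting fl/fl replicate 2 stood at opposite ends at different probes. It had the highest signal of the 3 resting fl/fl arrays at Klk1b24, Klk1b21, Klk1b26, Klk1b3, Klk1b8 and the first Klk1 probe, and the lowest at Klk1b5, Klk1b4, Klk1b27, Klk1b9 and the second Klk1 probe. Klk1b26 read 0.26, 2.46 and 0.85 in resting fl/fl cells, against −0.56, −1.18 and −0.64 in resting +/fl cells. Klk1b5 read 2.75, −0.05 and 2.44 in resting fl/fl cells, against 2.68, 1.90 and 2.67 in resting +/fl cells. Klk1, tissue kallikrein itself, showed both patterns, since its 2 probes disagreed.

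The first Klk1 probe read −1.60, 1.68 and −0.28 in resting fl/fl cells, against −1.99, −2.73 and −2.03 in resting +/fl cells. The second read 0.69, −1.94 and 0.35 in resting fl/fl cells, against 0.72, −0.06 and 0.58 in resting +/fl cells. The 2 probes of this gene therefore placed replicate 2 at opposite ends of the fl/fl group. These kallikreins other than the members were picked out after their values were seen, and the opposite pattern on replicate 2 was not tested. A further Klk1b26 probe was at background in resting cells.

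**Figure D2:**
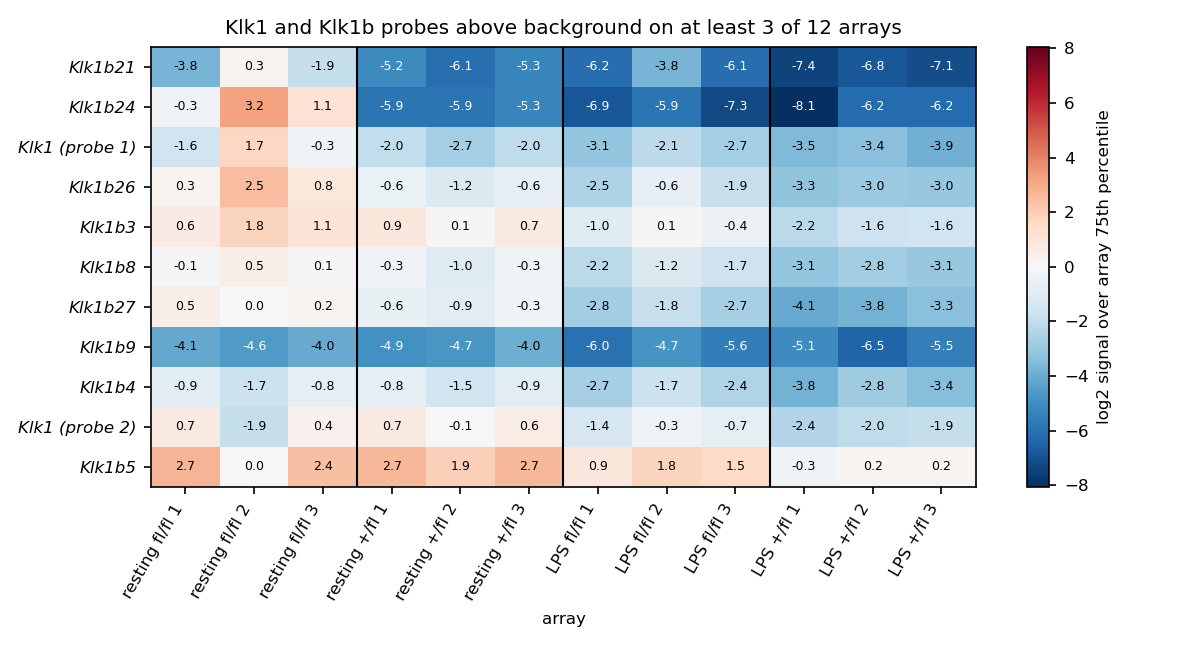
Level (log2 signal over the array's 75th percentile, colour and number) of the Klk1 and Klk1b probes above background on at least 3 of 12 arrays, one column per array; rows are ordered by how far resting fl/fl replicate 2 lies above replicates 1 and 3. The top rows, with Klk1b21 and Klk1b24, are highest on resting fl/fl replicate 2, and the bottom rows, with Klk1b5 and the second Klk1 probe, are lowest there among the fl/fl arrays.

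In the fit across all probes, each kallikrein gene being read from its brightest probe, 0 of the 13 kallikrein genes tested outside the members passed the threshold in resting cells (adjusted p under 0.05), where 7.75% of all other probes did. Their median difference was 0.43, against 0.04 over all probes, and the nearest to the threshold was Klk1b26, at 1.98 with an adjusted p of 0.0597. After LPS, 0 of 11 tested genes passed, where 0.228% of probes did. Each of the 11 had a higher mean in LPS fl/fl than in LPS +/fl cells, with a median difference of 1.30 against 0.04 over all probes, and the nearest to the threshold was Klk1b5, at 1.40 with an adjusted p of 0.0856. Marker lists of other blood cells did not all go the same way after LPS. Median differences were 1.14 over 5 NK cell genes, 0.75 over 8 T cell genes, 0.73 over 9 myeloid genes and 0.58 over 4 platelet genes. The erythroid median was below 0, at −0.55 over 4 genes. Of the T cell genes Lat passed (1.10, limma on the 6 LPS arrays, adjusted p = 0.0357). The part of these cells in the kallikrein levels was not tested.

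Zfp30, a KRAB zinc finger gene on chromosome 7, was on in resting fl/fl cells at 1 of its 2 probes. Probe 1 read −2.75, −1.88 and −2.96 in resting fl/fl cells, against −5.94, −6.17 and −6.38 in resting +/fl cells, at least 6.38-fold. With normexp probe 1 differed by 0.67 on the log2 scale, less than this bound. After LPS it read −5.10, −4.02 and −3.65 in fl/fl cells, where all 3 arrays were above background, against −5.59, −4.74 and −5.95 in +/fl cells, where 1 was. The groups overlapped, with a difference of 1.17 (SE 0.47; limma on the 6 LPS arrays, adjusted p = 0.220; exact two-sided permutation p = 0.2). With quantile normalization the difference was 0.17 (limma, adjusted p = 0.922).

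Probe 2 of Zfp30 did not share this pattern. It read −5.79, −5.79 and −7.19 in resting fl/fl cells, against −6.79, −6.94 and −7.38 in resting +/fl cells, with no array above background. LPS-treated cells read −6.19, −4.89 and −4.85 in fl/fl cells, 2 of them above background, against −7.22, −5.81 and −7.20 in +/fl cells, none above it. The resting on-off call for Zfp30 thus rests on 1 probe.

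Zfp69, the other KRAB zinc finger gene, was expressed in every group and higher in resting fl/fl cells. It read 2.85, 2.13 and 1.79 in resting fl/fl cells, against −1.22, 0.38 and 0.09 in resting +/fl cells, a difference of 2.50 (5.67-fold) with no overlap. In LPS-treated cells it read −0.25, −0.51 and −1.52 in fl/fl cells, against −0.75, −2.02 and 0.21 in +/fl cells. These groups overlapped fully, with a difference of 0.09 (SE 0.63; limma on the 6 LPS arrays, adjusted p = 0.935; exact two-sided permutation p = 0.9).

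The wider zinc finger family was read too, each gene from its brightest probe. Of 291 tested genes named Zfp outside the members, 15 were higher and 5 lower in resting fl/fl cells, beside 4.05% and 3.7% of all other probes, with a median difference of 0.16 against 0.04. Zfp58 rose by 0.90 (SE 0.11, adjusted p = 0.00390), Zfp169 by 1.01 (SE 0.15, adjusted p = 0.00849), and Zfp239 fell by 0.88 on the log2 scale (SE 0.13, adjusted p = 0.00854), all by limma on the 12 arrays. Of 12 genes for KRAB partners and the silencing machinery, Trim28 among them, Chd3, a chromatin remodeller, rose by 0.66 (SE 0.17, adjusted p = 0.0421) and Uhrf1, which guides maintenance DNA methylation, fell by 1.62 on the log2 scale (SE 0.30, adjusted p = 0.0165). After LPS 0 of 284 Zfp genes and 0 of these 12 passed.

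Tsga13 ran the other way, on in resting +/fl cells only. It read −6.93, −7.14 and −7.09 in resting fl/fl cells, against −0.25, −0.79 and −0.57 in resting +/fl cells. The fl/fl arrays were all at background and the +/fl arrays averaged −0.53 ± 0.27 (SD, n = 3), which makes the gene at least 25.1-fold lower in fl/fl cells. With normexp the gene differed by −1.46 on the log2 scale, less than this bound. After LPS it read −8.02, −4.20 and −7.38 in fl/fl cells, against −7.32, −7.19 and −7.00 in +/fl cells, and only LPS fl/fl replicate 2 was above background. In +/fl cells it was at least 30.3-fold lower after LPS than at rest, again set against the resting group that chose the gene. Resting +/fl replicate 3 and LPS +/fl replicate 1, whose sample names share a number, read −0.57 and −7.32.

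Markers of other cells were read beside the members. Summed signals, here and in the next paragraph, are processed intensities not scaled to each array's 75th percentile. That percentile ran from 310 to 428 on the resting fl/fl arrays and from 331 to 495 on the resting +/fl arrays. The 9 myeloid marker genes were above background on all resting arrays. Their median difference was −1.36, lower in resting fl/fl cells, against 0.04 over all probes. 1 of them, Adgre1, passed as lower in resting fl/fl cells (−1.17, limma on the 12 arrays, adjusted p = 0.0477). The summed signal of the 9 ran from 4282 to 5842 in resting fl/fl cells and from 5637 to 63239 in resting +/fl cells. These ranges overlapped only at their ends. All 8 B cell markers were above background on every array, with summed signals of 147230 to 181020 in resting fl/fl cells and 206020 to 245950 in resting +/fl cells, and 3 of them passed as lower in resting fl/fl cells. None of the T cell, NK cell or erythroid markers passed at rest, with median differences of −0.44, 0.08 and −1.67. Of 6 platelet markers, all above background in resting cells, Itgb3 rose by 1.55 and Gp1bb by 1.08 (limma on the 12 arrays, adjusted p = 0.0142 and 0.0254), and the summed signal of the 6 was 3811 to 5611 in fl/fl and 1904 to 1961 in +/fl cells. In sorted bulk samples, fewer cells of a type and less RNA per cell cannot be told apart, and the part of these cells in the members' levels was not tested.

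Markers of the tissues for which these genes are known were also read. Of 7 salivary gland markers 2 were above background on all 3 arrays of each resting genotype, with summed signals of 158 to 165 in fl/fl and 175 to 404 in +/fl cells. Of 4 ciliated cell markers none was above background on all 3 arrays of either. Of 4 testis markers 3 were in both, at summed signals of 115 to 181 in fl/fl and 136 to 194 in +/fl cells. Counts of genes past the threshold in both lists stand beside 4.05% higher and 3.7% lower among all other probes. Among 16 tested motile cilia genes Rfx2, a transcription factor of ciliogenesis (named after its value was seen), rose by 1.04 (SE 0.28, adjusted p = 0.0499), while Iqcg, Ak7 and Tekt2 fell, Iqcg by 1.36 on the log2 scale (SE 0.26, adjusted p = 0.0189). Of 20 tested testis genes 1, Tsga10, rose, by 0.80 (SE 0.21, adjusted p = 0.0453), all by limma on the 12 arrays.

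Tmem121 was present in every group and low in fl/fl cells. It read −2.78, −2.72 and −2.09 in resting fl/fl cells, against 2.37, 0.52 and 2.53 in resting +/fl cells, 20.2-fold lower without overlap. The log2 difference of −4.34 was −4.98 without +/fl replicate 2 and −2.62 with normexp background correction. After LPS it read −4.18, −2.66 and −3.80 in fl/fl cells, against −1.83, −2.25 and −1.57 in +/fl cells. Every LPS fl/fl array was again below every LPS +/fl array, as were 10.5% of all probes. The mean LPS levels were −3.55 in fl/fl and −1.88 in +/fl cells, a difference of −1.66 (SE 0.42; limma on the 6 LPS arrays, p = 0.00817, adjusted p = 0.126; exact two-sided permutation p = 0.1, the smallest that 3 against 3 arrays allow). Without LPS fl/fl replicate 2, the array that stood apart, the difference was −2.11 with an adjusted p of 0.0394, while leaving out any other LPS array gave −1.84 to −1.34 with adjusted p of 0.226 to 0.277. With slide as a block it was −1.96 (adjusted p = 0.747), the same as fl/fl replicate 3 minus +/fl replicate 1 within slide 2. Only that slide held both LPS genotypes. With normexp after repair of high local background the difference was −0.93 (adjusted p = 0.0545), all by limma.

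Comparisons of LPS with resting levels hold the resting groups on which the gene was chosen high or low. In +/fl cells the LPS level was 12.9-fold below the resting level with no overlap, and in fl/fl cells it was 2.02-fold below it with overlap. Resting +/fl replicate 3 and LPS +/fl replicate 1, with the shared number, read 2.53 and −1.83. Cr2, which encodes CD21, the marker of the narrower sort gate, had a probe among those most like Tmem121 over the 12 arrays (r = 0.961). At its brightest probe Cr2 averaged 1.65 in resting fl/fl and 4.11 in resting +/fl cells (−2.46, limma on the 12 arrays, adjusted p = 2.78e-05). After LPS it averaged −0.08 in fl/fl and 1.90 in +/fl cells (−1.98, limma on the 6 LPS arrays, adjusted p = 0.0357). Which gate each sample went through is not given, and the part of the gate in Tmem121 was not tested.

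The LPS arrays took no part in choosing the genes, so the genotype difference there is the test that the design leaves. The fl/fl arrays lay on slides 3, 3 and 2 and the +/fl arrays on slides 2, 1 and 1. Only slide 2 held both LPS genotypes, so slide and genotype can hardly be told apart in this test. 3 of the 9 probes, for Zfp30, Zfp69 and Tmem121, were above background on at least 3 of the 6 LPS arrays and were tested, and 0 passed. In all, 55 of 24133 probes (0.228%) were called, 0.162% as higher and 0.0663% as lower in fl/fl cells. Without adjustment, 2 of these 3 (Zfp30 and Tmem121) and 5483 of the 24133 tested probes had a limma p under 0.05. The 6 other probes, with 0 to 2 arrays above background in any LPS group, did not pass the filter. Fitted without a filter, none of the 9 passed, at adjusted p from 0.403 for Tmem121 to 0.944 for Zfp69 (limma on the 6 LPS arrays), with differences of 2.25 for Jhy probe 1 (adjusted p = 0.522) and 1.79 for Klk1b21 (adjusted p = 0.491). None of the 9 was above background on 3 of 3 arrays of one LPS genotype and 0 of 3 of the other. Over all probes, 0.559% were on in fl/fl only and 0.00486% in +/fl only. LPS fl/fl replicate 2, with 83.2% of its spots above background, can only raise the first share and lower the second. The part of that array in the split was not tested. Differences between 3 and 3 arrays with this spread are wide, and a missed threshold does not show that the genotypes were alike.

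**Figure D3:**
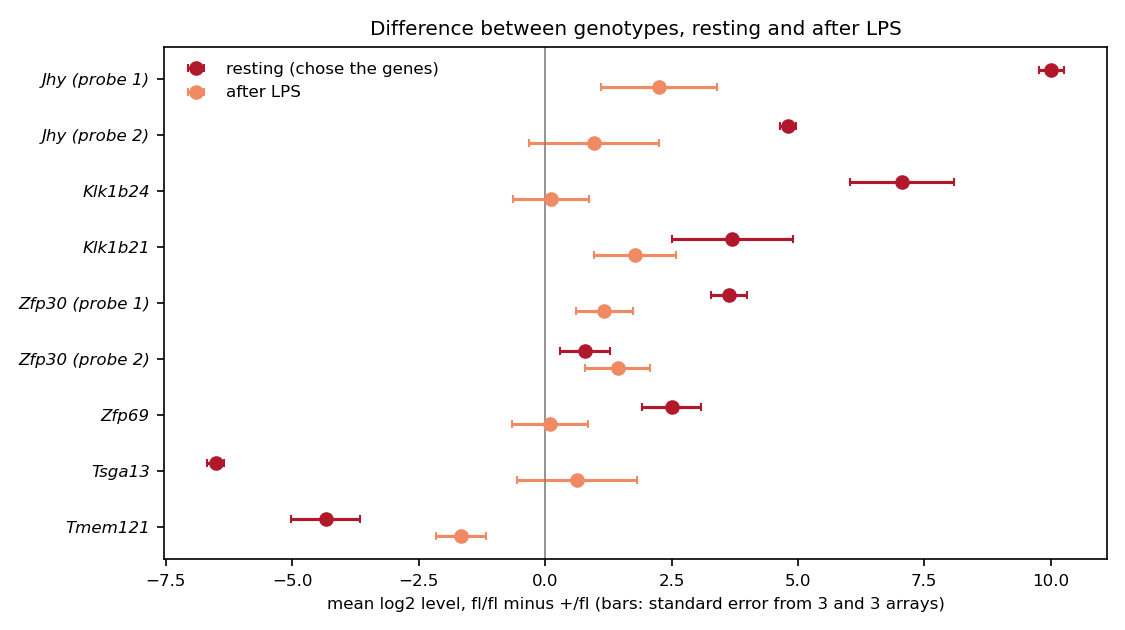
Difference of mean levels, fl/fl minus +/fl (log2, horizontal axis), for each probe in resting cells and after LPS, with bars for the standard error from 3 and 3 arrays. Probes at background enter with their measured values. The genes were chosen for large resting differences, which can by itself place LPS points nearer to 0 than resting points. The part of the choice in this was not tested.

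Genes next to the members on their chromosomes passed the test in resting cells about as often as probes in general. Of 63 neighbours, the 5 measured genes on each side of each member in the order of the GRCm38.p6 annotation, 46 were tested, and 2 were higher and 2 lower in resting fl/fl cells, beside 4.05% and 3.7% of all other probes, with a median of 0.06 against 0.04 over all probes. The 4 are named as values, not as a result about these loci. Beside Jhy, Crtam, an adhesion molecule of T and NK cells, rose by 1.40 (SE 0.33, adjusted p = 0.0370). Beside Zfp69, Smap2, which acts in vesicle traffic, rose by 0.91 (SE 0.14, adjusted p = 0.0103).

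The 2 neighbours that fell both lay beside Tmem121, at the end of chromosome 12 that holds the immunoglobulin heavy chain locus. Tedc1, a centriole gene, fell by 1.51 on the log2 scale (SE 0.29, adjusted p = 0.0194), and a probe named Igh, for the heavy chain locus, fell by 2.61 on the log2 scale (SE 0.19, adjusted p = 0.000254), by limma on the 12 arrays. After LPS 0 of 44 tested neighbours passed. Tedc1 then differed by −0.15 and the Igh probe by −0.03.

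**Figure D4:**
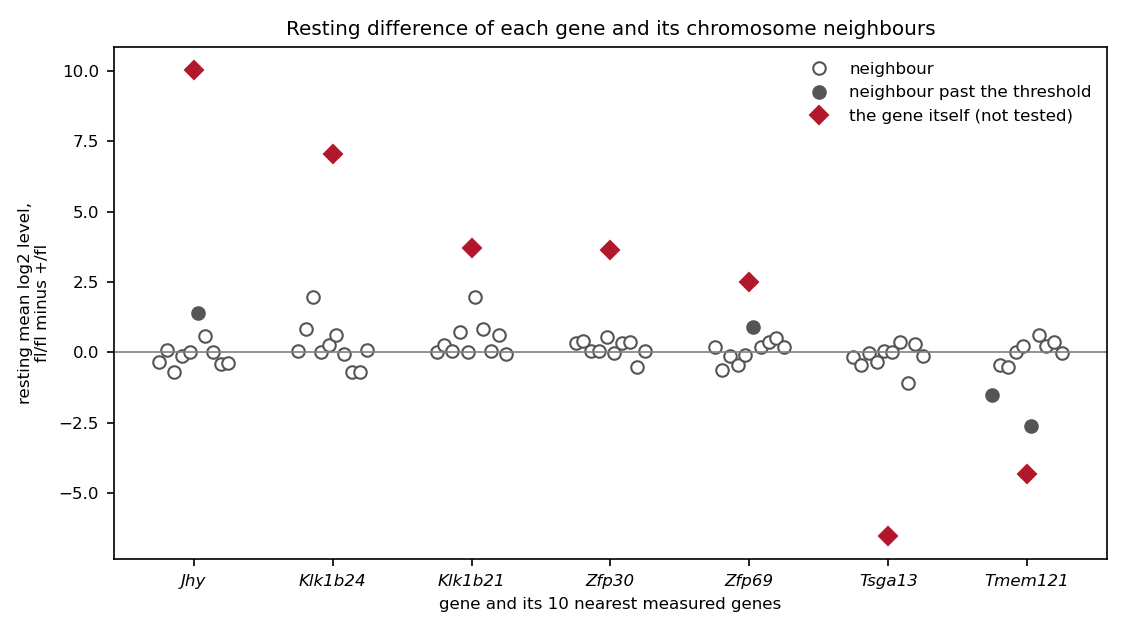
Difference of mean resting levels, fl/fl minus +/fl (log2, vertical axis), of each gene (diamond; probe 1 for Jhy and Zfp30) and of its 10 nearest measured genes (circles, filled where past the threshold; dim genes that were not tested are shown as open circles too). Most neighbours lie near 0, and 4 are past the threshold, beside Jhy, Zfp69 and Tmem121.

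Positions of the widest resting differences, as measured, were counted too. Among the 25 largest rises of probes with non-overlapping values, 4 lay on chromosome 7 (Klk1b21, Klk1b24, Zfp30 and Rinl) and 6 on chromosome 9, 2 of them Jhy probes and 4 from BC020150, Rfx7 and 1810046K07Rik. Among the 25 largest falls, 24 had a position and 6 of these were on chromosome 7, with Trim30b, Trim30d, Trim12a and Plaur. Of all probes with a position, 7.14% were on chromosome 7 and 5.63% on chromosome 9. These counts were made after the values were seen and carry no test. Next in rank of resting difference came Dsp, a desmosome gene, at 2.50 just below Zfp69 among the rises, and Trim12a, at −3.87 just after Tmem121 among the falls.

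Other genes followed the members over the 12 arrays, which share the resting arrays that chose them. For each member's brightest probe the closest were BC004066 for Jhy (r = 0.966), Sun1, a nuclear envelope gene, for Klk1b24 (r = 0.973), the first Klk1 probe for Klk1b21 (r = 0.976), Pdcd1lg2, the checkpoint ligand PD-L2, for Zfp30 (r = 0.962), Akna for Zfp69 (r = 0.945), Plaur, the urokinase receptor, for Tsga13 (r = 0.959) and Mxd3 for Tmem121 (r = 0.973). The next 2 were Gimap3 (r = 0.957) and Ube4a (r = 0.944) for Jhy, Klk1b26 (r = 0.958) and Wscd2 (r = 0.935) for Klk1b21, Slc25a37 (r = 0.953) and S1pr3 (r = 0.952) for Tsga13, and Mad2l1 (r = 0.968) and Cr2 for Tmem121. Gimap3 also followed Klk1b24 (r = 0.947), LOC665798 (r = 0.919) and Stat4 (r = 0.910) followed Zfp30, and Proser3 (r = 0.945) and Med13 (r = 0.926) followed Zfp69. Among the members, Jhy probe 1 and Klk1b24 correlated at r = 0.934, Klk1b24 and Klk1b21 at r = 0.916, and Tsga13 and Tmem121 at r = 0.902.

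Klk1b24 and Klk1b21 have promoters that are near copies. They are shown here with the bases that differ in capitals (RefSeq, GRCm38.p6, the window around the gene start). They overlap by 265 bases, of which 259 are identical and 6 differ. Promoters of other kallikreins were not compared, and the part of the promoters in the levels was not tested.
Klk1b24 (chr7:44187986-44188285, plus strand): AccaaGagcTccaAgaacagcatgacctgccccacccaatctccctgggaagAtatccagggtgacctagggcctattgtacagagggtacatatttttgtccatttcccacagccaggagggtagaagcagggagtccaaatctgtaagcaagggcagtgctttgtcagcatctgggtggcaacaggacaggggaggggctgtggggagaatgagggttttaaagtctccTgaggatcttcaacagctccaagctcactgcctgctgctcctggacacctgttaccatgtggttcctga
Klk1b21 (chr7:44102042-44102341, plus strand): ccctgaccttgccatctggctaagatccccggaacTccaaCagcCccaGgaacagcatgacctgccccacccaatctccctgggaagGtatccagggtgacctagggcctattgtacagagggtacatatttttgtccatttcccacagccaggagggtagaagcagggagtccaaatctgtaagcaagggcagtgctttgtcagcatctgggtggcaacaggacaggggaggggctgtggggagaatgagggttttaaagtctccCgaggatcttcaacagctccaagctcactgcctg
Over the 10 promoters listed for the 7 genes, base composition ran from 38% G and C in 1 Jhy promoter to 73.7% in 1 of Zfp69.

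Ebf1, the floxed gene, was above background on all 12 arrays at both of its probes. One was at 1.76 in resting fl/fl and 1.14 in resting +/fl cells, a difference of 0.62 (SE 0.15, adjusted p = 0.0384), and the other at −4.46 in resting fl/fl and −2.56 in resting +/fl cells, a difference of −1.90 (SE 0.48, adjusted p = 0.0432), both by limma on the 12 arrays. After LPS neither passed (0.12, adjusted p = 0.473, and −0.92, adjusted p = 0.342, by limma on the 6 LPS arrays). The floxed exons are not given, so neither probe checks the deletion.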

How the data were processed

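Total RNA of 12 samples had been hybridised by the authors to 1-colour Agilent mouse arrays (design 014868, 3 slides). Per the file headers, Feature Extraction 9.5.3.1 (9.1 in the submitters' processing notes) gave the processed Cy3 intensity per spot, with background already subtracted. The authors' deposited table of normalized intensity served as an alternative. Spots marked non-uniform or as outliers were left out, replicate spots averaged, and log2 intensity taken relative to each array's 75th percentile. Symbols came from accessions, current or older symbols in a RefSeq table. Genotypes were compared in R 4.3.3 by limma (version 3.58.1), with Benjamini-Hochberg adjustment over all probes at 0.05: after LPS on the 6 LPS arrays (probes above background on at least 3), and at rest, for genes other than the members, on all 12 arrays (above background on at least 3 of 12). Where 1 group was never above background, a fold is a lower bound, against the lowest signal above background or the probe's own.

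The members and gene lists were chosen with earlier results of these data known. Named were all members, Ebf1, the 3 genes most like each member, up to 3 genes per list with the smallest p among those past the threshold, and the probes next in rank. Alternatives were other scalings, normexp (offset 50), the deposited values, other filters, slide, replicate number, variance model, and leaving out each array. For arrays, their number limits the precision.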

Additional observations from a re-analysis of the deposited data

Results flagged for a closer look

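The LPS minus resting difference of Zfp30 probe 1 was −1.72 in fl/fl cells and 0.74 in +/fl cells, which have opposite signs. In +/fl cells the values overlapped and 1 LPS array and 0 resting arrays were above background, so no direction is shown there. Both resting groups enter these values, and the resting arrays chose the gene, so the difference between the genotypes was not tested.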

How the results depend on the processing

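The 55 probes called between LPS genotypes became 334 with scaling by the array median, 0 with normexp, 580 with normexp after repair of high local background, 0 with no filter, 275 with a filter on all 6 arrays, 248 with all 12 arrays in the fit, 1 with slide as a block, 1581 with slide as a random block (correlation −0.385), 1098 with a trended, robust variance and 0 with the replicate block; leaving out 1 array gave 0 to 315, the highest without fl/fl replicate 2. Deviations from the group means correlated weakly between same-numbered replicates (−0.07 to 0.16 after LPS and 0.01 to 0.09 at rest). That does not show whether these samples were paired. Of the members, 0 were called in the main fit. Tmem121 alone was called with median scaling (−2.18, limma, adjusted p = 0.00055), with slide as a random block (−1.59, limma, adjusted p = 0.0466) and without fl/fl replicate 2 (−2.11). Leaving out 1 array gave it −2.11 to −1.34. With median scaling Zfp30, Zfp69 and Tmem121 had the same SE, 0.46, so that p does not measure the spread of Tmem121 itself. The LPS difference of Zfp30 was 0.17 with quantile normalization and with the deposited values, and turned to −0.63 with normexp. That of Zfp69 turned to −0.43 with median scaling and to −0.40 with normexp. With slide as a block it was −0.77, the same value as within slide 2, which alone held both LPS genotypes. It was −0.16, −0.03 and −0.49 without fl/fl replicate 1, fl/fl replicate 2 and +/fl replicate 2, and leaving out 1 array gave up to 0.63. The 1990 probes called at rest outside the members became 382 with median scaling, 0 with normexp, 424 with no filter, 393 with the 6 resting arrays only and 842 with the replicate block, and 547 to 1878 without 1 array, so the resting calls of neighbours and lists depend on these choices. Under the rule of at least 2 arrays of 3 against 0, the 147 on-off probes at rest became 681 and the 232 after LPS became 1413. The resting values of 8 of the 9 member probes did not overlap between genotypes, and 4 did not with normexp. Median scaling moved the median of all probes to −0.49 in the LPS comparison. It changes all probes of an array by 1 amount, so the tested members all moved down by the same amount. The median signal was 93.0 on LPS fl/fl replicate 2 and 31.3 to 35.9 on the other LPS arrays. The 75th percentile was 725 on that array and 580 to 695 on the others. The part of that array and the cause of the other shifts were not tested. Resting differences of the members, which chose them, ranged over the alternatives from 4.55 to 10.4 for Jhy probe 1, 3.36 to 9.14 for Klk1b24, −6.89 to −1.46 for Tsga13 and −5.09 to −2.62 for Tmem121. They ranged from 0.81 to 5.17 for Jhy probe 2, 1.35 to 5.42 for Klk1b21 and 0.67 to 4.06 for Zfp30 probe 1, each smallest with normexp. For Zfp30 probe 2 the range was 0.08 to 1.25, and for Zfp69 1.70 to 3.34. The lower bounds on folds were computed with the main processing only, and the resting differences with normexp were smaller than these bounds.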
